A study of Mus musculus with 6 samples.

Results

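The insulin-like growth factor (IGF) genes described here are 8 of the 24411 genes in the table, picked by symbol: Igf1, its receptor gene Igf1r, and the binding protein genes Igfbp2, Igfbp3, Igfbp4, Igfbp5, Igfbp6 and Igfbp7. They were measured by RNA-seq of total RNA from the Achilles tendon of C57BL/6 mice at 18 weeks of age, in 3 libraries from Scx-Cre/Piezo1 GOF mice and 3 from WT mice. The mutant genotype joins Cre recombinase driven by sequence of Scx, a transcription factor gene of tendon cells, to a Piezo1 allele with gain of function (GOF), and Piezo1 encodes a cation channel that opens under mechanical force. Cre driven by Scx acts in cells that have expressed Scx, so other cells of a dissected tendon need not carry the active allele. The labels do not say whether the WT mice carried the Cre, and they do not tie libraries to separate animals, so every p-value below measures the spread between these libraries, which may be technical.

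IGF1 is a secreted hormone that binds a receptor tyrosine kinase, IGF1R, and signals through the PI3K-AKT-mTOR and MAPK arms to growth and protein synthesis. In tendon it is known to act on fibroblasts as a stimulus of collagen synthesis, and fibroblasts and macrophages are among its local sources. The IGF-binding proteins are secreted, hold IGFs outside the cell with high affinity, and can block, store or deliver them, and proteases release the hormone by cutting them. IGFBP7 is a distant relative with low affinity for IGF.

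The libraries held between 8131527 and 17180856 counts. Levels are scaled counts-per-million (CPM) values, given as mean ± SD with n = 3 for each genotype. Fold changes are Piezo1 GOF over WT from edgeR's quasi-likelihood fit, as log2 values ± their standard error (SE), and adjusted p-values are from that test with Benjamini-Hochberg adjustment over all 13466 genes tested at a threshold of 0.05. Piezo1 was at 152.6 ± 24.7 CPM in Piezo1 GOF and 121 ± 21.1 CPM in WT (edgeR adjusted p = 0.442), which does not check the labels, since gain of channel function need not show in the transcript. The 11 tenocyte markers listed for the check of the tissue were all tested, and their summed level was 39421 to 70941 CPM in Piezo1 GOF and 5464 to 18230 CPM in WT. The 18 skeletal muscle markers were all detected in every library, with a summed level of 24053 to 75105 CPM in Piezo1 GOF and 76322 to 169072 CPM in WT. Their mean log2 CPM, the muscle covariate used below, overlapped between the genotypes. It was 10.55, 9.03 and 10.52 in Piezo1 GOF replicates 1 to 3 and 10.29, 11.41 and 10.55 in WT replicates 1 to 3. WT replicate 2 stood apart, with the most counts of any library, the highest summed muscle level and the lowest summed tenocyte level. In bulk tissue, fewer cells of a type and less RNA per cell cannot be told apart.

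The ligand gene and 4 of the binding protein genes had higher mean levels in the mutant tendon, while Igf1r and Igfbp3 had near-equal means and Igfbp2 was close to the limit of detection. Igfbp6 had the largest fold change of the 7 tested genes, 3.93-fold, followed by Igf1 at 2.62-fold. None of the 7 passed the threshold over all genes, where edgeR called 0.0149% of tested genes higher and 0.0% lower. With p unadjusted and under 0.05, the same test gave 2 of the 7 as higher, Igf1 and Igfbp6, against 10.2% of all tested genes. The groups did not overlap for 3 of the 7, Igf1, Igfbp6 and Igfbp7, all higher in Piezo1 GOF, against 13.6% of all tested genes. For Igfbp7 this held only with the scaling factors applied. The median log2 fold change of the 7 was 0.99, and that of all tested genes was 0.00 (-0.004). Other tools, which call more genes in these data, differed on Igfbp6 and Igf1: DESeq2 called both among its 3.46% of genes called higher, and edgeR's exact test called Igfbp6 alone among its 3.36%. These tools called 2.51% (DESeq2) and 1.76% (exact test) of genes lower. Limma voom called 0.72% of genes higher and 0.141% lower, and edgeR with no filter on low counts called 0.767% higher and 0.131% lower, with none of the 8 among them.

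**Figure D1:**
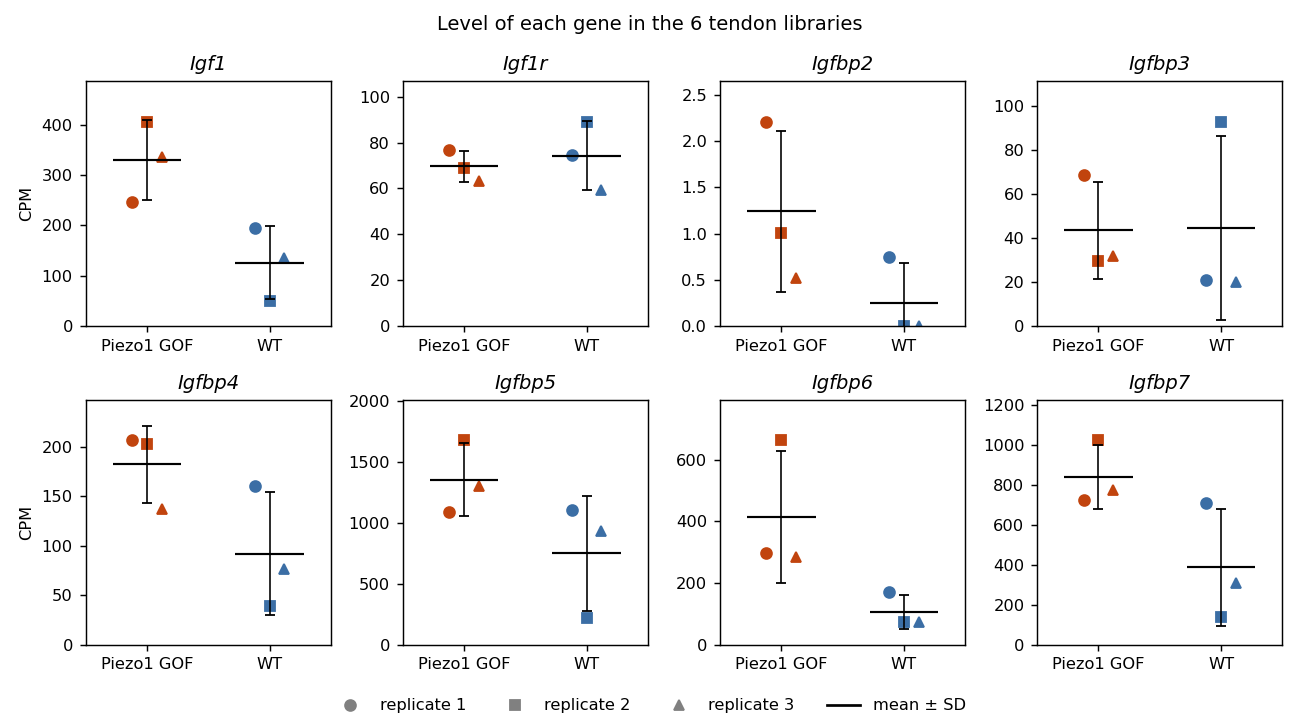
Level of each of the 8 genes in CPM (linear axes from 0), with 1 symbol per library and the mean ± SD of 3 libraries per genotype. All 3 Piezo1 GOF libraries lie above all 3 WT libraries for Igf1, Igfbp6 and Igfbp7, and WT replicate 2 is the lowest library for Igf1, Igfbp4, Igfbp5 and Igfbp7 and the highest for Igfbp3 and Igf1r.

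Igf1, the ligand gene, was at 246.9, 405 and 336 CPM in Piezo1 GOF replicates 1 to 3 and at 194, 48.9 and 134 CPM in WT replicates 1 to 3. Every mutant library was above every WT library, and WT replicate 2 was the lowest of the 6. Its log2 fold change was 1.39 ± 0.46 (95% interval 0.35 to 2.43; edgeR adjusted p = 0.177). DESeq2 gave 1.37 with an adjusted p of 0.0291. Without WT replicate 2 the value was 1.001 ± 0.33 (edgeR adjusted p = 0.303). With the mean log2 CPM of the muscle markers as a covariate the log2 fold change was 0.99 ± 0.38 (edgeR adjusted p = 0.412). Igf1 (ENSMUSG00000020053.18) lies on the plus strand at chr10:87858265-87937042 of mm10, where the annotation places Igf1os, an antisense transcript, within its span. Igf1os is not a row of the table analysed here, and the strand setting of the counting is not given in the sources used here.

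Igf1r, the receptor gene, was at 76.6, 69.1 and 63.1 CPM in Piezo1 GOF and at 74.8, 89.0 and 59.2 CPM in WT. The groups overlapped fully, with both the highest and the lowest library among WT. The log2 fold change was -0.10 ± 0.22, with a 95% interval of -0.59 to 0.40 (edgeR adjusted p = 0.832), and limma voom gave 0.013. The gene (ENSMUSG00000005533.10) spans chr7:67952827-68233668 on the plus strand.

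Igfbp6, whose protein binds IGF2 more tightly than IGF1, was at 298, 663 and 284 CPM in Piezo1 GOF and at 169, 74.3 and 73.9 CPM in WT. The groups were apart, Piezo1 GOF replicate 2 was the highest library by far, and WT replicate 1 was the highest of the WT libraries. Its log2 fold change was 1.97 ± 0.46 (95% interval 0.93 to 3.02; edgeR adjusted p = 0.111). Without WT replicate 1 it was 2.501 ± 0.44 and passed over all genes (edgeR adjusted p = 0.0418), in a fit that called 1.32% of genes higher and 0.332% lower. Leaving out Piezo1 GOF replicate 2, the highest library, gave 1.48 ± 0.40 (edgeR adjusted p = 0.298), the lowest of the 6 values with 1 library left out, and of these only that without WT replicate 1 passed. DESeq2 (1.95, adjusted p = 3.62e-04) and edgeR's exact test (1.97, adjusted p = 0.00322) also called it with all 6 libraries. With the muscle covariate the log2 fold change was 1.33 ± 0.32 (edgeR adjusted p = 0.230). Igfbp6 (ENSMUSG00000023046.6) is at chr15:102144362-102149511 on the plus strand, and no other annotated gene overlaps it.

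Igfbp7, the low-affinity relative, known from vessel walls and matrix, was at 722, 1021 and 771 CPM in Piezo1 GOF and at 708, 139.9 and 309.7 CPM in WT. The groups did not overlap, but Piezo1 GOF replicate 1 and WT replicate 1 were nearly level. Their scaling factors were 0.947 and 1.095, and without these factors WT replicate 1 was the higher, so the groups overlapped. The log2 fold change was 1.12 ± 0.53 (95% interval -0.08 to 2.32; edgeR adjusted p = 0.2796). Leaving out WT replicate 2 gave 0.72 ± 0.42, and leaving out WT replicate 1 gave 1.92 ± 0.44 (edgeR adjusted p = 0.483 and 0.0635). Igfbp7 (ENSMUSG00000036256.13; chr5:77349240-77408041, minus strand) was the only one of the 8 genes with counts that were not whole numbers. The span of Polr2b, an RNA polymerase II subunit gene on the opposite strand, overlaps it, and the counts of the pair added up to a whole number in 6 of 6 libraries (tolerance 0.001), so the estimate divided shared reads between them. Polr2b counts were 3.66% to 4.64% of the Igfbp7 counts in Piezo1 GOF and 5.58% to 33.3% in WT. With the counts of the pair summed, a fit chosen after seeing the data, the log2 fold change was 1.03 ± 0.48 (edgeR adjusted p = 0.274).

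Igfbp5, whose protein binds matrix and cell surfaces and is the most conserved of the family, was at 1089, 1678 and 1299 CPM in Piezo1 GOF and at 1106, 215.3 and 929 CPM in WT. The groups overlapped, since WT replicate 1 was level with Piezo1 GOF replicate 1, and WT replicate 2 alone was far below the others. The log2 fold change was 0.85 ± 0.55 (95% interval -0.40 to 2.104; edgeR adjusted p = 0.411). Leaving out WT replicate 2 gave 0.41 ± 0.36, and leaving out WT replicate 1 gave 1.27 ± 0.60 (edgeR adjusted p = 0.636 and 0.248). Igfbp4, whose protein inhibits IGF action and is the substrate of the protease PAPP-A, was at 206, 202 and 138 CPM in Piezo1 GOF and at 159.9, 38.6 and 76.6 CPM in WT. WT replicate 1 lay within the mutant range and the other WT libraries below it. The log2 fold change of Igfbp4 was 0.99 ± 0.46 (95% interval -0.05 to 2.03; edgeR adjusted p = 0.268), with 1.69 ± 0.36 once WT replicate 1 was left out and 0.62 ± 0.37 once WT replicate 2 was (edgeR adjusted p = 0.0577 and 0.486). With the muscle covariate the log2 fold changes were 0.43 ± 0.46 for Igfbp5, 0.69 ± 0.42 for Igfbp4 and 0.73 ± 0.44 for Igfbp7. Igfbp5 (ENSMUSG00000026185.8) lies on the minus strand at chr1:72857932-72874884 and Igfbp4 (ENSMUSG00000017493.12) on the plus strand at chr11:99041244-99054392.

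Igfbp3, the main carrier of IGF in blood, was at 68.7, 29.7 and 32.0 CPM in Piezo1 GOF and at 20.7, 92.9 and 20.02 CPM in WT. The highest of the 6 libraries and the 2 lowest were all WT, and the highest was WT replicate 2, the library with the lowest level of Igf1, Igfbp4, Igfbp5 and Igfbp7. The log2 fold change was -0.05 ± 0.60 with a 95% interval of -1.41 to 1.31 (edgeR adjusted p = 0.973), so a 2-fold difference in either direction lies within the error. Without WT replicate 2 the direction turned, to 1.09 ± 0.39 (edgeR adjusted p = 0.332), and with the muscle covariate it was 0.96 ± 0.58 (edgeR adjusted p = 0.598). The value was 0.065 without scaling factors, so no direction can be given for this gene. Igfbp3 (ENSMUSG00000020427.11; chr11:7206086-7213923, minus strand) lies 3.5 kb from Igfbp1, which is known mainly from liver and had a count of 0 in all 6 libraries.

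Igfbp2, a binding protein of the fetus and of the adult liver and brain, did not pass the filter on low counts. It had 17, 10 and 7 counts in Piezo1 GOF and 7, 0 and 0 counts in WT, which are 2.21, 1.003 and 0.519 CPM in Piezo1 GOF and 0.752, 0 and 0 CPM in WT. A count of 0 allows up to 0.192 CPM in WT replicate 2 and 0.339 CPM in WT replicate 3, by counting error only. WT replicate 1 lay within the range of the mutant libraries, so the groups overlapped. With no filter on low counts the log2 fold change was 2.31 ± 1.36 (edgeR adjusted p = 0.416), a value over a group close to 0. All 7 WT counts came from WT replicate 1. Without that library WT was at 0, and the fitted value of 6.78 ± 1.77 (edgeR adjusted p = 0.0876) depends on the prior count and is no bound, while leaving out WT replicate 2 gave 1.64 ± 1.26 (edgeR adjusted p = 0.595). Igfbp2 (ENSMUSG00000039323.18; chr1:72824503-72852474, plus strand) is a neighbour of Igfbp5, with 5.5 kb between the pair, and the per-kb level of Igfbp5 was far above it in every library.

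**Figure D2:**
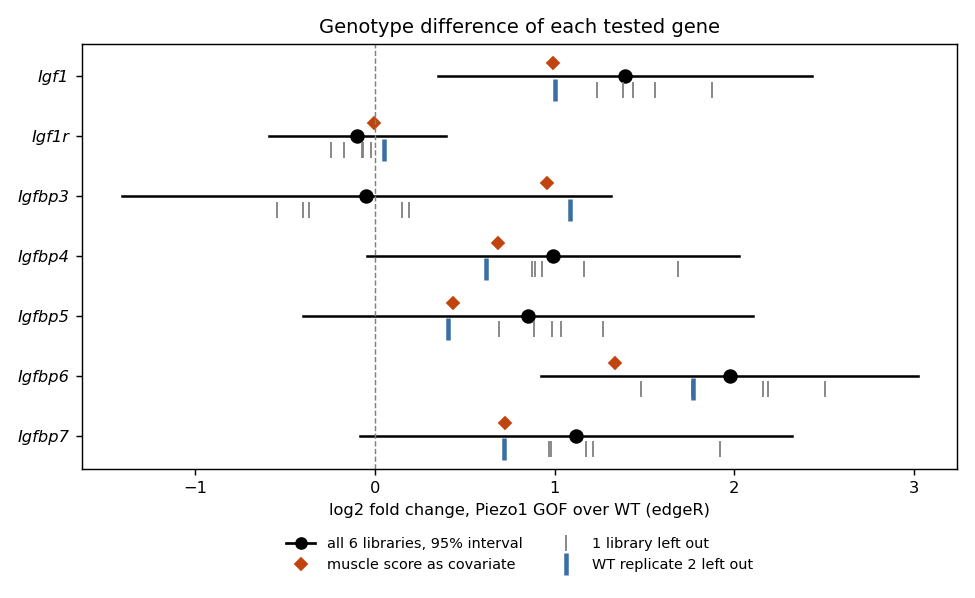
Log2 fold change (Piezo1 GOF over WT) of the 7 tested genes from edgeR's quasi-likelihood fit, with the 95% interval from all 6 libraries (black), the value with the muscle score as covariate (diamond) and the values with 1 library left out (ticks, WT replicate 2 in blue). The interval lies above 0 for Igf1 and Igfbp6, and the value of Igfbp3 is 1.09 without WT replicate 2 and -0.05 with all 6 libraries.

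Read per library, 5 of the 7 tested genes were far below their mean in WT replicate 2 and the other 2 were above it. Relative to its own mean over the 6 libraries on the log2 CPM scale, WT replicate 2 was at -1.93 for Igf1, -1.61 for Igfbp4, -2.06 for Igfbp5, -1.38 for Igfbp6 and -1.86 for Igfbp7. The same library was at 0.32 for Igf1r and 1.33 for Igfbp3. The closest pair was Igf1 and Igfbp7, with a root mean square difference between their centred log2 CPM values of 0.231, and the most distant was Igfbp3 and Igfbp5 at 1.63. The 6 libraries share their depth and tissue makeup among all genes, so these distances describe the libraries and carry no test. Among 10633 tested genes with a name, mitochondrial ones left out, and with a mean of at least 5 CPM, the 3 nearest to Igf1 by this measure were Col5a2, a fibrillar collagen chain gene, Serpinf1, which encodes the secreted factor PEDF, and Glt8d2, at distances of 0.104, 0.153 and 0.182. Those nearest to Igfbp5 were Gria3, the proteoglycan gene Bgn and the collagen chain gene Col6a1 (0.046, 0.182 and 0.186). Those nearest to Igfbp6 were Spon1, Rarres2 and Prdx4 (0.117, 0.128 and 0.205), to Igfbp7 the intermediate filament gene Vim, Crip1 and Ctsh (0.142, 0.186 and 0.189), and to Igfbp4 Atp2a3, Mical1 and Marveld1 (0.156, 0.161 and 0.161). The genes nearest to Igfbp3 were less close, at 0.306 for Galnt15, 0.385 for Kri1 and 0.418 for Arntl, a circadian clock gene. Igf1r, which varied least, had Smpdl3a at 0.043 and Pcbp1 at 0.044.

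**Figure D3:**
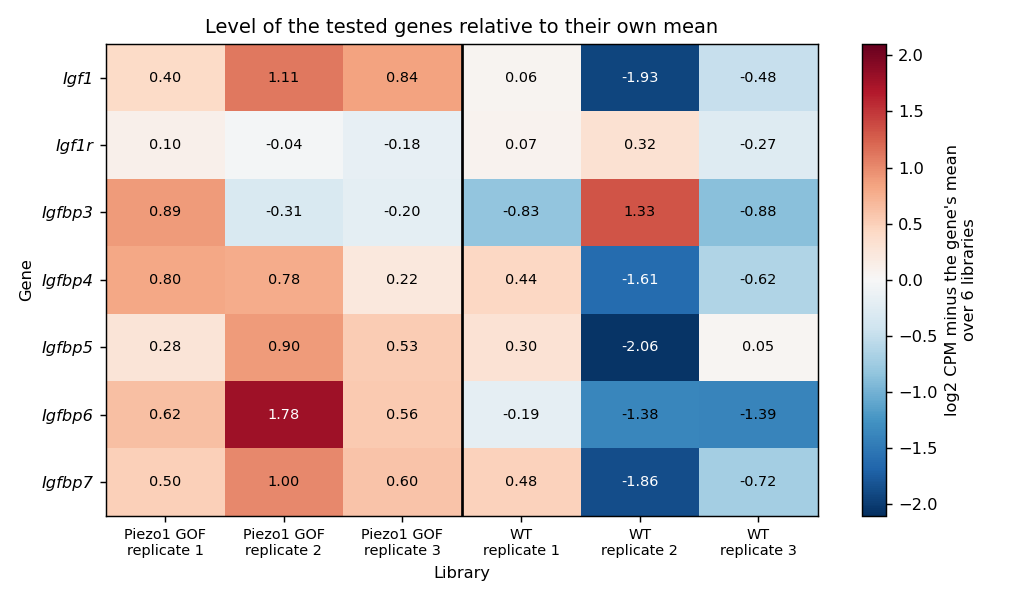
Log2 CPM of the 7 tested genes in each library minus the mean of that gene over the 6 libraries (colour and printed value). WT replicate 2 is the lowest column for Igf1, Igfbp4, Igfbp5 and Igfbp7 and the highest for Igfbp3 at 1.33, and the values of Igf1r lie between -0.27 and 0.32.

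The summed levels of several cell type marker lists did not overlap between the genotypes either, while those of the endothelial, adipocyte and erythroid lists did. The 13 macrophage markers, all tested, summed to 687 to 865 CPM in Piezo1 GOF and 186 to 292 CPM in WT. The 7 markers of tendon sheath and interstitial fibroblasts summed to 716 to 781 CPM in Piezo1 GOF and 264 to 533 CPM in WT. The 10 endothelial markers summed to 581 to 863 CPM in Piezo1 GOF and 839 to 1529 CPM in WT, and the 8 pericyte and smooth muscle markers to 659 to 961 CPM in Piezo1 GOF and 1239.6 to 4405 CPM in WT. The 7 adipocyte markers summed to 457 to 1162 CPM in Piezo1 GOF and 229.5 to 504 CPM in WT, the 7 bone markers to 1714 to 3227 CPM in Piezo1 GOF and 89.8 to 404 CPM in WT, and the 5 erythroid markers to 20.97 to 71.8 CPM in Piezo1 GOF and 11.2 to 35.98 CPM in WT. Against 13.6% of all tested genes that were higher in Piezo1 GOF without overlap, this held for 11 of 11 tested tenocyte markers, 12 of 13 macrophage, 6 of 7 sheath fibroblast, 5 of 5 bone and 2 of 7 adipocyte markers, and for none of the muscle, endothelial, pericyte and smooth muscle or erythroid markers. Against 12.1% of all tested genes that were lower without overlap, this held for 3 of 18 muscle, 3 of 10 endothelial and 3 of 7 tested pericyte and smooth muscle markers, and for none of the other lists. No marker of any list was called by edgeR over all genes. None of these markers was at 0 in all libraries, and Hba-a2, Hbb-bs, Bglap and Dmp1 were at 0 in at least 1. The part of these lists in the differences of the IGF genes was not tested, apart from the fit with the muscle covariate.

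Levels can be set between genes only per length, and CPM per kb of merged exon length was used for that. In Piezo1 GOF the order was Igfbp7 at 693 ± 133 CPM per kb, Igfbp6 at 373 ± 193, Igfbp5 at 226 ± 49.7, Igfbp4 at 41.2 ± 8.76, Igf1 at 33.3 ± 8.01, Igfbp3 at 13.9 ± 6.98, Igf1r at 4.14 ± 0.403 and Igfbp2 at 0.674 ± 0.472 (SD, n = 3). In WT the order was Igfbp7 at 319 ± 241 CPM per kb, Igfbp5 at 124.9 ± 78.5, Igfbp6 at 95.1 ± 49.4, Igfbp4 at 20.8 ± 14.1, Igfbp3 at 14.2 ± 13.4, Igf1 at 12.7 ± 7.38, Igf1r at 4.43 ± 0.890 and Igfbp2 at 0.136 ± 0.235 (SD, n = 3). Igfbp7, Igfbp6 and Igfbp5 stood above Igf1 and Igf1r without overlap in both genotypes, while Igfbp3 overlapped Igf1 in WT and lay below it in Piezo1 GOF. In Piezo1 GOF the ranges of Igfbp6 and Igfbp5 overlapped, as did those of Igfbp4 and Igf1, and the other neighbours in that order were apart. In WT the ranges of neighbours overlapped except between Igfbp6 and Igfbp4 and between Igf1r and Igfbp2.

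As shares of the summed per-kb level of the 6 binding proteins, Igfbp7 made up 53.5%, 47.6% and 55.4% in Piezo1 GOF and 60.7%, 45.1% and 51.1% in WT. Igfbp6 made up 24.0%, 33.6% and 22.2% in Piezo1 GOF and 15.8%, 26.0% and 13.3% in WT, and Igfbp5 made up 16.2%, 15.7% and 18.8% in Piezo1 GOF and 19.1%, 13.96% and 30.9% in WT. Igfbp4 made up 2.58% to 4.19% in Piezo1 GOF and 3.40% to 3.75% in WT, and Igfbp2 at most 0.107% in any library. Igfbp3 was at 0.534% to 1.96% in every library but WT replicate 2, where it reached 11.6%. The groups overlapped for the share of each of the 6 genes, and the two-sided exact permutation test, which gave p = 0.3 to 1 over the 6 shares, cannot go below 0.1 with 3 against 3. The largest difference in share was that of Igfbp6, 26.6% ± 6.11 in Piezo1 GOF and 18.3% ± 6.77 in WT (SD, n = 3; exact permutation p = 0.3). That difference of 8.25 percentage points was 4.76 once Piezo1 GOF replicate 2 was left out, and it was 12.1 once WT replicate 2 was.

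**Figure D4:**
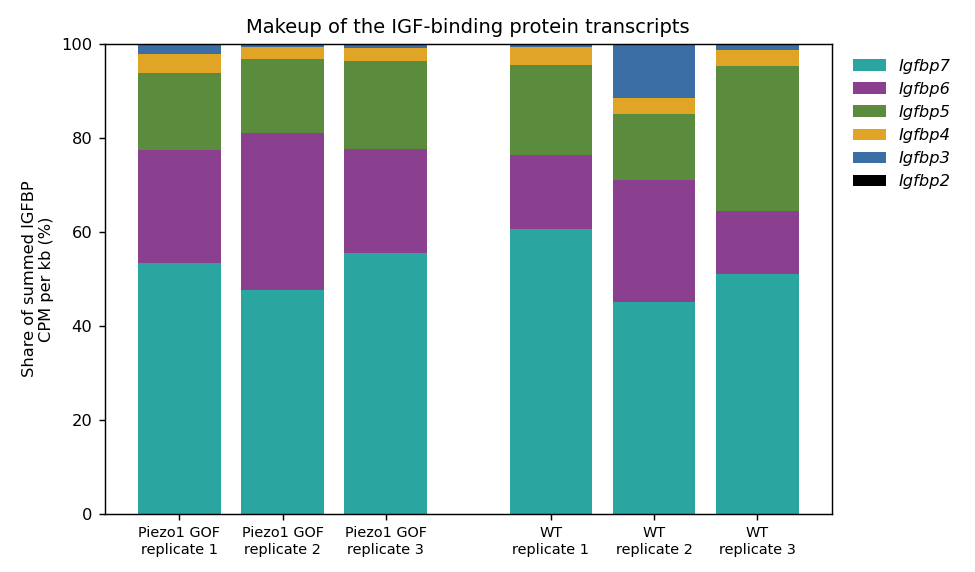
Share of each binding protein gene in the summed CPM per kb of the 6 genes (stacked, in percent), with 1 bar per library. Igfbp7 is the largest share in every library, from 45.1% to 60.7%, and Igfbp3 takes 11.6% in WT replicate 2.

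The summed level of the 6 binding proteins was 1117, 1776 and 1152 CPM per kb in Piezo1 GOF and 966, 257 and 501 CPM per kb in WT, with no overlap (two-sided exact permutation p = 0.1, the smallest possible). The gap depends on scaling, since the factors were 0.947 for Piezo1 GOF replicate 1 and 1.095 for WT replicate 1. Without these factors both libraries would be about level. Set against the ligand, the summed level was 44.8, 43.4 and 34.0 times the per-kb level of Igf1 in Piezo1 GOF and 49.2, 52.1 and 37.0 times in WT. That ratio overlapped between the genotypes (exact permutation p = 0.4). Its size depends on the length used, which for Igf1 was 9904 bases of merged exons against 7052 for the longest coding transcript. The ratio of Igf1 to Igf1r per kb was 5.47, 9.94 and 9.02 in Piezo1 GOF and 4.41, 0.930 and 3.84 in WT, again with no overlap (exact permutation p = 0.1).

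The promoters of 4 members are printed because their genes differ in behaviour: Igfbp6 with the largest fold change, Igfbp7 with the highest level per kb, Igf1r with the flattest values and Igfbp3 with the pattern unlike the others. Each is the 250 bases before the RefSeq start in GRCm38.p6, 5′ to 3′ on the strand of the gene, with capitals marking every match on either strand to CANNTG, the E-box bound by basic helix-loop-helix factors such as Scx, to GGGCGG, the GC box, or to TGANTCA, the AP-1 motif. They lie at chr15:102143936-102144185 (plus), chr5:77408046-77408295 (minus), chr7:67952007-67952256 (plus) and chr11:7213924-7214173 (minus), outside annotated exons. The Igfbp6 and Igf1r windows end well before the gene starts given above, which are from GENCODE.
Igfbp6: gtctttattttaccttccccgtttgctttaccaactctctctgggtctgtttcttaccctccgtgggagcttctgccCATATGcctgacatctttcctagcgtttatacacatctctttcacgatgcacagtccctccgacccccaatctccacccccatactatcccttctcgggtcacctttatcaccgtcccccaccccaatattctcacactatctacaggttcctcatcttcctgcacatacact
Igfbp7: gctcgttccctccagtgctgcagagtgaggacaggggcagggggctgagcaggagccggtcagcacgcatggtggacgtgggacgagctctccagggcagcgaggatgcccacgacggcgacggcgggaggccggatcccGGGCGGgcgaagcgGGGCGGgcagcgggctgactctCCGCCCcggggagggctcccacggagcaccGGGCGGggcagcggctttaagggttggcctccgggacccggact
Igf1r: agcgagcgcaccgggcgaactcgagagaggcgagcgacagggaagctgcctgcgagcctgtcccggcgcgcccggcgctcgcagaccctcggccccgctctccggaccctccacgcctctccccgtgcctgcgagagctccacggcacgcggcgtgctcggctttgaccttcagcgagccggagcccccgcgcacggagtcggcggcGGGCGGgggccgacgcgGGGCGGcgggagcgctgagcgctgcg
Igfbp3: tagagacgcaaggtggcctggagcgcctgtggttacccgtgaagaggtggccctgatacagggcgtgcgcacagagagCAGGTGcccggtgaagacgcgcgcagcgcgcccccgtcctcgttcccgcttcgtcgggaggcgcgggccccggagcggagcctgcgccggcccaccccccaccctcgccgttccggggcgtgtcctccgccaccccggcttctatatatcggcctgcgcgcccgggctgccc
The Igfbp6 and Igfbp3 windows held 1 E-box each and no GC box, while the Igfbp7 window held 4 GC boxes and the Igf1r window 2, with no E-box in either. The windows of Igf1, Igfbp4 and Igfbp5 held 1 E-box each, and that of Igf1, which lies within an annotated exon, also held 1 AP-1 motif. Of the windows of Igfbp2, which has 2 RefSeq starts, the first held 1 E-box and 3 GC boxes and the second 1 E-box and 1 AP-1 motif. Of all 32851 promoter windows of this length, 66.2% held an E-box, 32.7% a GC box and 6.75% an AP-1 motif. Scx itself was at 77.9, 60.2 and 45.1 CPM in Piezo1 GOF and 17.2, 14.2 and 15.95 CPM in WT (log2 fold change 1.95 ± 0.25; edgeR adjusted p = 0.0572). It lies within the span of Bop1 on the opposite strand, and the strand setting is not given. Reads were divided between Igfbp7 and Polr2b, also on opposite strands, so those of Scx may be shared with Bop1 and its counts are uncertain. A match describes the letters of the window and says nothing of binding there.

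Beyond the 8 genes, the IGF pathway list held 76 genes, all in the table, of which 68 were tested and none passed over all genes by edgeR. Taken by unadjusted p-values under 0.05, 5 were higher and 9 lower, against 10.2% and 9.59% of all tested genes. Groups without overlap were found for 8 higher and 10 lower, against 13.6% and 12.1%. The median log2 fold change of the 68 was -0.21. The shares of the pathway list were thus near the background, and DESeq2 called 2 of them higher and 3 lower.

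Among the other ligands and receptors, the insulin receptor gene Insr was at 85.4, 54.1 and 80.6 CPM in Piezo1 GOF and 94.5, 219 and 135 CPM in WT, lower without overlap (log2 fold change -1.03 ± 0.33; edgeR adjusted p = 0.171). Igf2r, which clears IGF2 from the cell surface, had a log2 fold change of -0.53 ± 0.29 with overlapping groups (edgeR adjusted p = 0.332). Igf2 was at 27.4 ± 8.62 CPM in Piezo1 GOF and 27.8 ± 18.7 CPM in WT, with a log2 fold change of -0.03 ± 0.48. The genes for insulin itself and Insrr had too few counts to be tested. Igfals, which encodes the acid-labile subunit of the circulating IGF complex, was at 10.01, 5.12 and 6.67 CPM in Piezo1 GOF and 4.19, 4.02 and 0.339 CPM in WT (1.32 ± 0.70; edgeR adjusted p = 0.320). Its level in WT replicate 3 stood for 3 counts. Tmem219, reported as an IGFBP3 receptor gene, had a log2 fold change of 0.44 ± 0.28 (edgeR adjusted p = 0.409).

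Of 8 tested proteases and protease inhibitors that act on binding proteins, 3 had positive and 5 negative log2 fold changes, with a median of -0.18. Htra1, a secreted serine protease gene that carries an IGFBP domain, was at 144, 179 and 138 CPM in Piezo1 GOF and 86.8, 32.8 and 53.5 CPM in WT. All mutant libraries were above all WT libraries (1.42 ± 0.34; edgeR adjusted p = 0.117), and the call passed without WT replicate 1 (edgeR adjusted p = 0.0370) and by DESeq2 (adjusted p = 0.00438). Its relative Htra3 had a log2 fold change of 0.56 ± 0.23 (edgeR adjusted p = 0.227). Pappa, the gene of PAPP-A, the protease that cuts IGFBP4, was at 4.16, 4.01 and 4.97 CPM in Piezo1 GOF and 9.45, 4.98 and 9.84 CPM in WT (-0.87 ± 0.37; edgeR adjusted p = 0.242). Pappa and Igfbp4 thus had differences of opposite sign, neither of which passed.

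On the growth hormone axis, which drives Igf1 transcription, 7 of 7 genes were tested, with a median log2 fold change of 0.08. Ghr, the growth hormone receptor gene, was at 141, 182 and 212 CPM in Piezo1 GOF and 124, 117 and 107 CPM in WT, apart between the genotypes (0.62 ± 0.23; edgeR adjusted p = 0.201). Socs1, an inhibitor of cytokine signalling, was at 2.47, 2.71 and 1.85 CPM in Piezo1 GOF and 0.752, 1.02 and 0.339 CPM in WT (1.68 ± 0.59; edgeR adjusted p = 0.188). The WT levels of Socs1 were near the limit of detection, with 3 counts in WT replicate 3, so its fold change is over a group close to 0. Below the receptor, the 8 adaptor genes had a median of 0.07 and none had an unadjusted p under 0.05. Irs2, an insulin receptor substrate gene, had the lowest value at -1.02 ± 0.52 (edgeR adjusted p = 0.304), and Shc1 was at 0.39 ± 0.24 (edgeR adjusted p = 0.377). Of 19 genes listed for the PI3K-AKT-mTOR arm, 15 had negative log2 fold changes, with a median of -0.35. Of 6 MAPK genes, 5 had negative values, with a median of -0.17. Of all tested genes, 49.7% had positive values. The genes of these arms share the tissue makeup of the libraries, and the part of muscle content in their signs was not tested. Tsc1, an inhibitor of mTOR, was at -1.16 ± 0.43 (edgeR adjusted p = 0.201), and Pdk1 was at -0.81 ± 0.35 (edgeR adjusted p = 0.249), both with overlapping groups. The symbol Pdk1 denotes a pyruvate dehydrogenase kinase gene and Pdpk1 (-0.48 ± 0.28) the AKT kinase gene. Pdk1 is thus not a gene of this arm, but the counts and medians of the arm and of the pathway list include it. In the MAPK arm the value of Map2k2, a kinase gene, was -0.37 ± 0.22 (edgeR adjusted p = 0.356).

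FOXO factors, which AKT holds inactive, and their targets had the lowest median of the role groups, -0.995 over 7 tested genes, with 6 negative. Trim63, a ubiquitin ligase gene of muscle atrophy, was at 26.5, 12.6 and 20.7 CPM in Piezo1 GOF and 34.2, 181 and 54.8 CPM in WT (-2.18 ± 0.59; edgeR adjusted p = 0.136). Fbxo32, the other such ligase gene, was at 156, 49.1 and 112 CPM in Piezo1 GOF and 177, 797 and 390 CPM in WT (-2.11 ± 0.58; edgeR adjusted p = 0.143). Both are genes of skeletal muscle fibres. Both were highest in WT replicate 2 and lowest in Piezo1 GOF replicate 2, the libraries with the highest and the lowest summed muscle level. The part of muscle content in the differences of these 2 genes, or in the median of the group, was not tested. DESeq2 called both lower (adjusted p = 0.00254 for Trim63 and 0.00207 for Fbxo32).

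**Figure D5:**
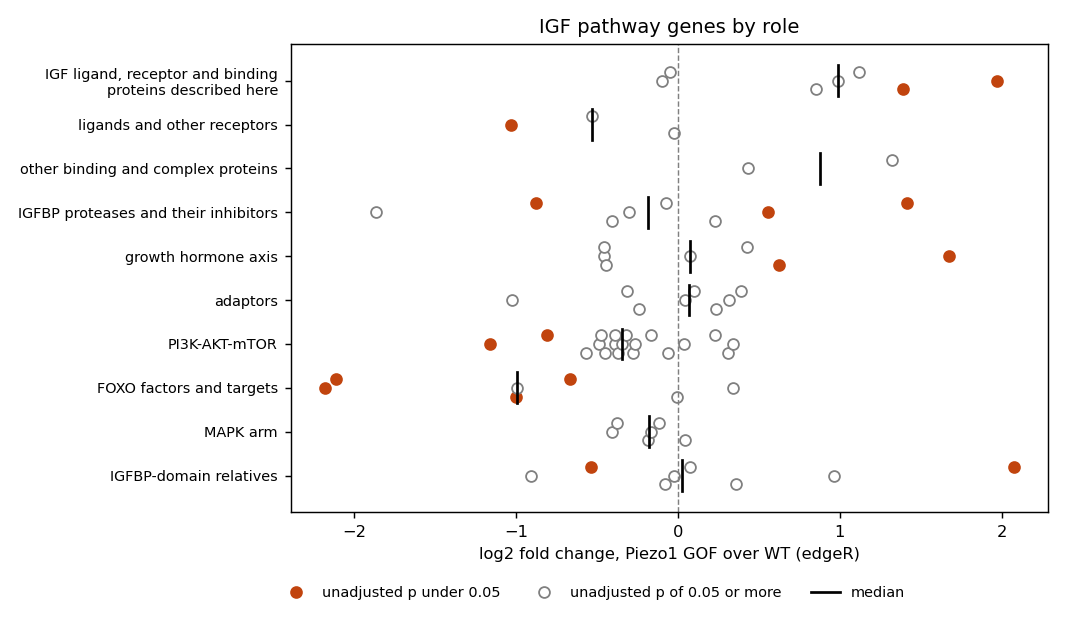
Log2 fold change (Piezo1 GOF over WT, edgeR) of each tested gene of the IGF pathway list by role, with the 7 tested genes described here in the top row. Filled points have an unadjusted p under 0.05, no gene passed after adjustment over all genes, and the bar marks the median of each row, from -0.995 for FOXO factors and targets to 0.99 for the top row.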

How the data were processed

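The authors deposited expected counts, the estimated counts of reads per gene with no scaling, for 6 libraries made with the GenNext RamDA-seq kit, per the labels' protocols, whose priming is not limited to poly(A) tails. The tools listed are bcl2fastq, STAR, RSEM and edgeR on build mm10, per the submitters' processing notes. Versions, annotation and strand setting: not given in the sources used here.

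Libraries were grouped by the genotype in their titles. Expected counts were rounded to whole numbers, filtered with filterByExpr (minimum count 10), scaled by TMM (factors 0.897 to 1.10) and tested two-sided by quasi-likelihood in edgeR without covariates. The SE is the log2 fold change over the square root of its F statistic. The common dispersion was 0.113. The fit was also run on counts simulated with its own dispersions and with no library set apart, unlike these data, and the outcome is not given here. No library was a copy of another (chi-square per degree of freedom 40.9 to 141 within genotypes). Positions and lengths came from GENCODE mouse release 21, which matched 23331 of 24411 symbols, and promoters from RefSeq (GRCm38.p6), which held all 8 genes.

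The genes and lists were chosen with earlier results of these data known. Named genes were the 8, up to 2 with the smallest p per role, and the 3 nearest to each tested gene; 2 genes that this rule names are not reported here. Pappa, Igf2, Pdpk1 and Polr2b were named after their values were seen. Alternatives were other scaling, no filter, DESeq2, edgeR's exact test, limma voom with sample quality weights, a replicate block, each library left out, muscle content, and the longest coding transcript as length. Software was R 4.3.3, edgeR 4.0.16, limma 3.58.1, DESeq2 1.42.0 and Python 3.11.15.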

Additional observations from a re-analysis of the deposited data

How the results depend on the processing

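The log2 fold changes of Igf1, Igfbp4, Igfbp5, Igfbp6 and Igfbp7 were positive under every alternative run. Of the 8 genes, the number called was 0 with all 6 libraries by edgeR, 0 to 1 with 1 library left out, 1 by edgeR's exact test and 2 by DESeq2, and 0 at a threshold of 0.1. All genes called numbered 2 by the reported fit, 0 without scaling factors, with the muscle covariate or with the replicate block, 0 to 228 with 1 library left out (228 without WT replicate 1), 165 without a filter, 689 by the exact test, 116 by limma voom and 882 by DESeq2. Pathway genes called numbered 0 by the reported fit, 0 to 3 with 1 library left out (3 without WT replicate 1), 1 without a filter or by limma voom, 4 by the exact test and 5 by DESeq2. The sign turned for Igf1r (-0.24 to 0.052 with 1 library left out, 0.013 by limma voom) and for Igfbp3 (-0.54 to 1.085 with 1 library left out, 0.065 without scaling factors, 0.957 with the muscle covariate, 0.286 with the replicate block and 0.501 by limma voom). The difference in share (percentage points) turned with 1 library left out for Igfbp3 (-5.29 to 0.148), Igfbp5 (-8.06 to 0.400) and Igfbp7 (-3.76 to 4.06), kept its sign for Igfbp6 (4.76 to 12.1), and was 0.300 for Igfbp7 with the longest coding transcript as length. The cause was not tested. Same-numbered libraries did not deviate together (correlations of -0.207, -0.137 and -0.053), and no library correlated best with its own number. Deviations from a mean of 3 libraries cannot exclude that the replicate numbers pair the libraries. With 3 libraries a genotype, the 95% intervals of Igfbp3, Igfbp4, Igfbp5 and Igfbp7 hold both no change and a 2-fold rise.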

Other observations

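Genes whose proteins carry an IGFBP domain outside the binding protein family varied widely. Of 9 listed, 8 were tested, 4 with positive and 4 with negative log2 fold changes and a median of 0.03. Kazald1, which encodes a secreted matrix protein with an IGFBP domain, was at 34.7, 40.1 and 34.99 CPM in Piezo1 GOF and 15.9, 3.83 and 6.56 CPM in WT. The mutant libraries were close to each other and all above WT (log2 fold change 2.08 ± 0.46; edgeR adjusted p = 0.104), and Kazald1 was called by edgeR without WT replicate 1 (adjusted p = 0.0226), by DESeq2 (adjusted p = 8.18e-04) and by limma voom (adjusted p = 0.0285). Crim1, a transmembrane gene of the same domain class, was at 141, 153 and 126 CPM in Piezo1 GOF and 208, 196 and 206 CPM in WT, lower without overlap (-0.54 ± 0.21; edgeR adjusted p = 0.217). Ctgf, a matricellular target of mechanical signalling, was at 755.6 ± 329.6 CPM in Piezo1 GOF and 799.6 ± 396 CPM in WT, a difference within the spread between libraries (-0.08 ± 0.48; edgeR adjusted p = 0.941). Ctgf was named after its values were seen.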
